A study of Homo sapiens with 6 samples.

Results

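Expressed genes of distal 20q, the outer part of the long arm of chromosome 20, were examined in K562 cells that relied on a full-length or a shortened EP400. The 46 members were taken from band 20q13 because the RNA of this arm was lower in the shortened-EP400 line in these same libraries, so their fold changes are given as a description and carry no test. The count files hold 60609 genes, of which 19114 passed a filter at 5 normalized counts on average, and all 46 members were among them. From CSE1L to PCMTD2 the members cover chr20:49046246-64304820 (GRCh38), a span of 15.3 Mb, with 29 genes on the plus strand and 17 on the minus strand.

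K562 is an established human leukemia line with erythroid and megakaryocytic features and many known chromosome rearrangements. In all 6 libraries endogenous EP400, the scaffold ATPase of the TIP60 acetyltransferase complex, was homozygously tagged for degradation (dTAG). The cells had received the degrader dTAGV-1 at 500 nM for 24 h. The WT libraries (3) came from cells with a transgene for full-length EP400 at the AAVS1 safe-harbor site. The Delta-TRRAP libraries (3) came from cells with an EP400 transgene at the same site that lacks the SANT and HD domains, through which the TRRAP subunit is held in the complex. Each line was 1 clone derived from the same tagged clone, so that clone and genotype cannot be told apart, and p-values measure the spread between replicates within a clone. DNA copy number was not measured in these libraries.

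Genes of distal 20q do unrelated work in the cell: the region holds, among others, nuclear export factors, glycosylation enzymes, a TFIID subunit, a prefoldin subunit and the stimulatory G protein alpha subunit. What they share is a place on 1 chromosome arm, and in cultured lines the arms of a chromosome can be gained, lost or silenced as blocks. Whether the RNA of such a block moves by 1 amount or by gene-specific amounts is described here by the spread of the fold changes, set beside the same spread in other genes of these libraries.

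Poly-A RNA was sequenced to 35076835 to 42616061 counts per library. EP400 itself had 4897, 4897 and 5377 normalized counts in WT and 5533, 6833 and 4357 in Delta-TRRAP, ranges that overlapped (log2 fold change 0.14 ± 0.11 (SE), edgeR adjusted p = 0.272). Endogenous and transgene RNA are counted together, so this does not check the deletion. The labels call the cells lymphoblasts, whereas 10 of 10 erythroid and megakaryocytic markers had counts in every library, with a summed level of 5500 to 5539 CPM in WT and 3667 to 3755 CPM in Delta-TRRAP. B lymphoid markers summed to 0.971 to 1.13 CPM in WT and 0.772 to 1.2 CPM in Delta-TRRAP, with MS4A1 listed at 0. T lymphoid markers summed to 11.5 to 11.6 CPM in WT and 10.96 to 12.2 CPM in Delta-TRRAP. Fibroblast markers summed to 0.872 to 1.4 CPM in WT and 24.5 to 25.9 CPM in Delta-TRRAP, with LUM listed at 0. In Delta-TRRAP the erythroid and megakaryocytic sum was thus lower and the fibroblast sum higher, while the B and T lymphoid ranges overlapped between the lines. The part of these marker differences in the results below was not tested.

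The members were lower as a group in Delta-TRRAP, and their RNA made up a steady share of each library within a line. They took 0.417%, 0.418% and 0.417% of all counts in the WT libraries and 0.296%, 0.297% and 0.296% in the Delta-TRRAP libraries. Their summed normalized count averaged 169981 ± 773 over the 3 WT libraries and 109977 ± 1275 over the 3 Delta-TRRAP libraries (SD), a log2 ratio of -0.63. The sum leans on a few abundant genes, since CSE1L alone gave 15.4% of it in WT and GNAS 9.6%. The median member, which does not lean on them, stood at 67.5%, 65.5% and 65.6% of the WT mean in Delta-TRRAP 1, 2 and 3.

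The median log2 fold change of the 46 members was -0.60, that is 66.2% of WT, and the median over all 19114 genes tested was 0.03. Of the members, 42 lay below 0 and 4 above it. In 40 members every Delta-TRRAP library was lower than every WT library, and in FAM210B every one was higher. The remaining 5 members had groups that overlapped. Over all genes tested the groups did not overlap in 71.1%, and lay lower without overlap in 33.7%. By edgeR's quasi-likelihood test, 39 members were lower at an adjusted p (Benjamini-Hochberg) of up to 0.01 and 1 was higher, beside 27.6% and 30.7% of all genes tested. With a fold change of at least 2 added, 7 members were lower, beside 6.08% of all genes, and FAM210B, the higher one, fell short of that fold. These counts follow from how the members were chosen, and nothing is read from them.

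**Figure D1:**
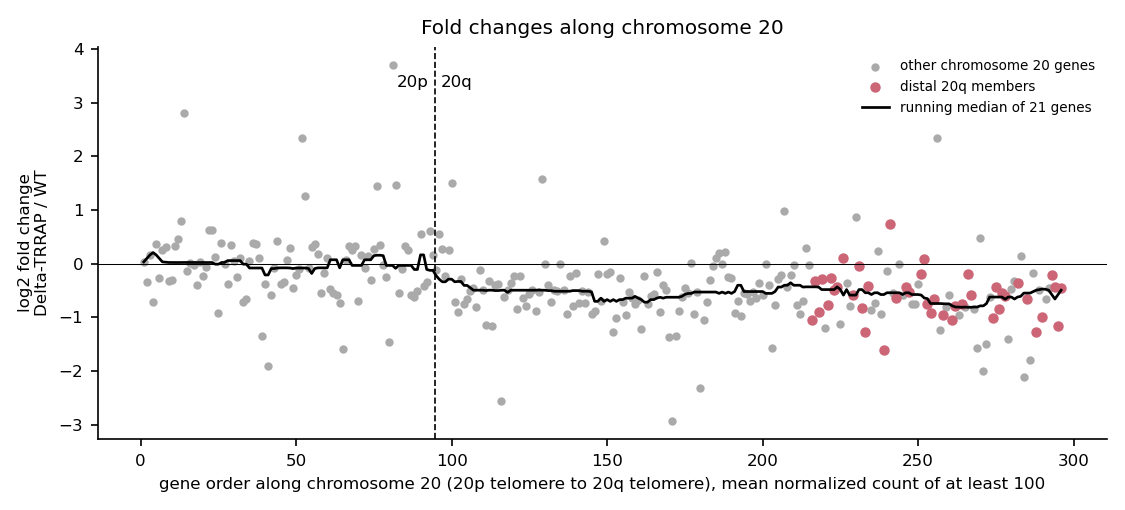
Log2 fold change (Delta-TRRAP over WT, vertical axis) of chromosome 20 genes averaging 100 or more normalized counts, in their order along the chromosome (horizontal axis), with distal 20q members in red, other genes in gray and a running median of 21 genes as a line. The line runs near 0 over the 94 genes of 20p and below 0 along 20q, and single members scatter on both sides of it.

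The lower level was not limited to the members. Among genes averaging 100 or more normalized counts, 38 further genes between the outermost members had a median of -0.70 on the log2 scale, and 118 other 20q genes had a median of -0.53. The 94 genes of 20p had a median of 0.01, with 47 below 0 and 47 not below it, and the 11462 genes of this level across the genome had a median of -0.09. Medians of 20p genes within single Delta-TRRAP libraries, relative to the WT mean, were 0.00, 0.01 and -0.04, while those of the members were -0.57, -0.61 and -0.61. The short arm therefore serves as a within-chromosome reference measured in the same libraries.

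In steps of 8 Mb from the 20p end, the median log2 fold change was -0.01, 0.25 and 0.07 over the first 24 Mb (51, 8 and 27 genes). It was -0.29 from 24 to 32 Mb (19 genes), the step that holds the centromere. Beyond it the medians were -0.55, -0.52, -0.48 and -0.64 in successive steps from 32 to 64 Mb (68, 40, 27 and 53 genes), and -0.45 over the last 3 genes. The step from values near 0 to values near -0.5 thus came next to the centromere, and the members sit in its outer part. Within the members, the 15 genes from 49 to 51 Mb had a median of -0.43, the 12 from 54 to 60 Mb a median of -0.64 and the 19 from 61 to 65 Mb a median of -0.66. Each of these stretches spread by more than it differed from the next, with SDs of 0.42, 0.58 and 0.31.

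**Figure D2:**
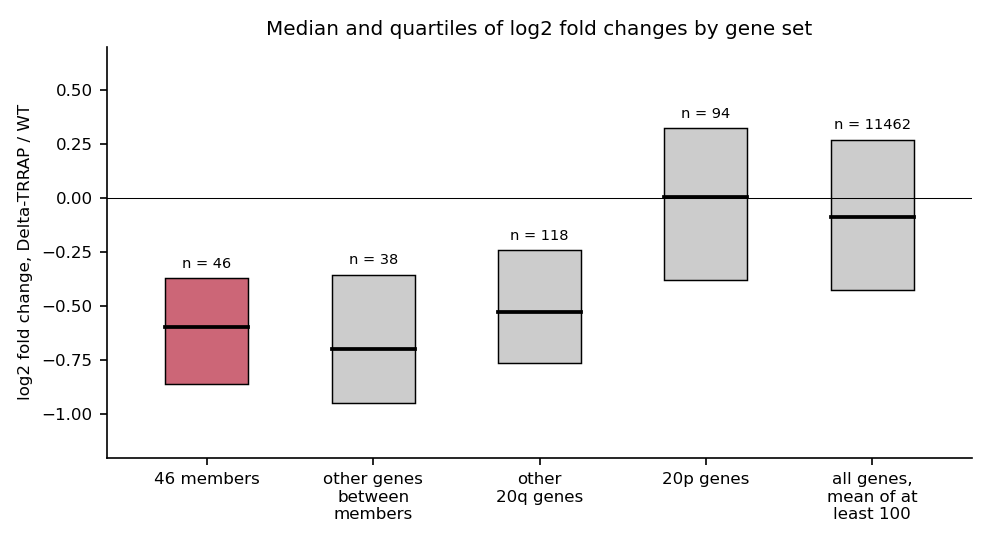
Boxes span the lower to the upper quartile of log2 fold changes (Delta-TRRAP over WT, vertical axis) and the thick line is the median, for the 46 members and 4 comparison sets of genes that average 100 or more normalized counts. The 3 sets on 20q have medians from -0.70 to -0.53, and the 20p and genome-wide sets have medians of 0.01 and -0.09.

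The decrease was not of 1 size. Log2 fold changes of the members ran from -1.60 to 0.73 with an SD of 0.43 and an interquartile range of 0.49 (-0.86 to -0.37). The SE of a single member's fold change had a median of 0.06 and a root mean square of 0.09, so that the spread between members was 4.77 times the error. That error is the spread between replicates of 1 clone, and other gene sets exceed it too: at 100 or more normalized counts, 20p genes had an SD of 0.77 beside a root mean square SE of 0.07, and all genes an SD of 0.94 beside 0.08. Of the 46 members, 12 lay within 2 SE of the shared median, 17 lay further above it and 17 further below. By distance alone, 20 members were within 0.2 of the median. The spread was much the same without members of low counts: the 43 that averaged 100 or more normalized counts had an SD of 0.42, and the 30 with at least 1000 had an SD of 0.44. By SD, the order against 20p depends on the level, and 20p was wider than the members at 100 or more. At 1000 or more its 48 genes had an SD of 0.37 around a median of -0.08. At that level 6803 genes across the genome had an SD of 0.59 around -0.14. By interquartile range the members were narrower than 20p at both levels. It was 0.49 for the 46 members against 0.70 for 20p genes at 100 or more. At 1000 or more it was 0.41 for members, 0.53 for 20p and 0.57 for all genes.

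Neighbors were no more alike than pairs of members at any distance. Among members with a mean of at least 100, the absolute difference in log2 fold change had a median of 0.44 over 42 neighboring pairs and of 0.38 over all 903 pairs. Across the 46 members the fold change had a Pearson correlation of -0.18 with position, 0.06 with exon length, 0.04 with exon GC content and -0.13 with mean level (Spearman's rho -0.19, 0.09, -0.02 and -0.19). These correlations are descriptions over genes that share the same 6 libraries. By strand, the median was -0.57 on the plus strand and -0.66 on the minus strand.

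**Figure D3:**
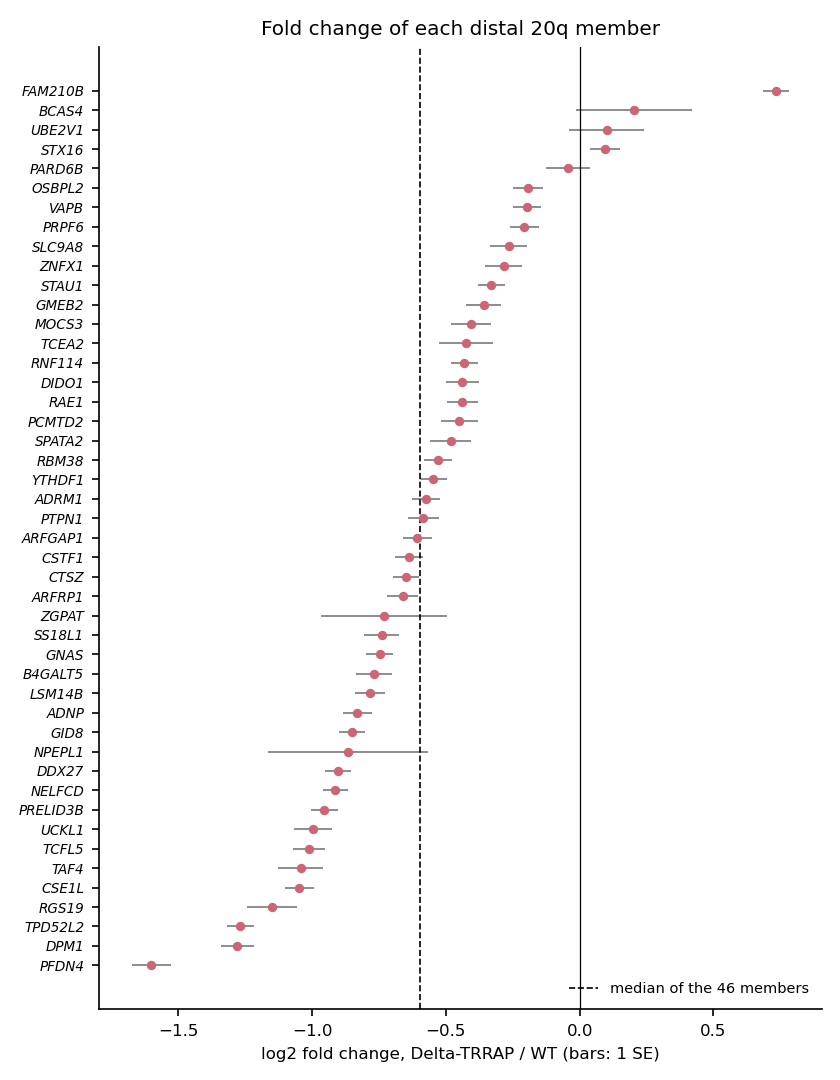
Log2 fold change of each of the 46 members (horizontal axis, Delta-TRRAP over WT; bars show 1 SE; dashed line, the median of -0.60), ordered from lowest to highest. Values run from -1.60 for PFDN4 to 0.73 for FAM210B, and most bars do not reach the median line.

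Promoters are shown for the member with the lowest fold change, the member with the highest, and a pair whose promoter windows share 215 bases on opposite strands while their fold changes differed. Each window holds 250 bases before and 50 after the gene's start, from RefSeq on GRCh38.p14, and reads 5′ to 3′ along the gene. The windows are chr20:54207837-54208136 (plus strand) for PFDN4, chr20:56358724-56359023 (plus) for FAM210B, chr20:50958483-50958782 (minus) for DPM1 and chr20:50958568-50958867 (plus) for MOCS3. Capitals mark matches, on either strand, to the motifs searched.
PFDN4: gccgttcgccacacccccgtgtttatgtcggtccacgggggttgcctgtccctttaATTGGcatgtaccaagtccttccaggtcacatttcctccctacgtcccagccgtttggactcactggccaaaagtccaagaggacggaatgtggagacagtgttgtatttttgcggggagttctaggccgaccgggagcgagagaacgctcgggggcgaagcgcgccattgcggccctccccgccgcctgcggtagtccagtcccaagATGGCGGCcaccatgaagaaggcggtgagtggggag
FAM210B: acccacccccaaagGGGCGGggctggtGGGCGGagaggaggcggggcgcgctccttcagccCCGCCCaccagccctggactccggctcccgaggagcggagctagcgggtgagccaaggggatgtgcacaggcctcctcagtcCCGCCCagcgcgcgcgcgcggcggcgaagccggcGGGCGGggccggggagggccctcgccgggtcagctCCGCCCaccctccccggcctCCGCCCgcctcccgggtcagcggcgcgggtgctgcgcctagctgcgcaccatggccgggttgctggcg
DPM1: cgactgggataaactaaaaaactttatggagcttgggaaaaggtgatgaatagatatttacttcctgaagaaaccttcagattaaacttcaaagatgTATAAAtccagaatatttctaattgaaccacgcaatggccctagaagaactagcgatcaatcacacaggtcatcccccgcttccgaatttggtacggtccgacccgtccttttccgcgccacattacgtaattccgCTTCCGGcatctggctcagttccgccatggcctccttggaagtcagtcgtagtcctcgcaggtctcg
MOCS3: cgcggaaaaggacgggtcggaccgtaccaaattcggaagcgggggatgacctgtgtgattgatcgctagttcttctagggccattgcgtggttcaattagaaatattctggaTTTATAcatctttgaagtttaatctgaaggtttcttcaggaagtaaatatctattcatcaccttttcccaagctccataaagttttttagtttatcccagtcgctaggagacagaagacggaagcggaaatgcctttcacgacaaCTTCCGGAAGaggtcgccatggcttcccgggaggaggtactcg

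The motifs searched on both strands were the GC box GGGCGG, the ETS core CCGGAAG, the E-box CACGTG, the CCAAT box, the TATA box TATAAA, the GATA motif AGATAA and the YY1 motif ATGGCGGC. FAM210B held 7 GC boxes and no other of these motifs in a window with 79% GC. PFDN4 held 1 CCAAT box and 1 YY1 motif in 61% GC. DPM1 and MOCS3 both held a TATA match in the shared bases, each had 46.3% GC, and MOCS3 had 2 overlapping ETS matches and DPM1 1. A window was found for 42 members. A GC box was present in 34 of them (81%) and in 48.3% of 27305 gene promoters, an ETS core in 31% against 12.2%, and a YY1 motif in 14.3% against 3.67%. The E-box was present in 11.9% against 8.77%, the CCAAT box in 33.3% against 39.7%, the TATA box in 9.52% against 14%, and the GATA motif in 4.76% against 12.4%. The members are expressed genes, and the 27305 promoters were not chosen by expression. The base composition differs too, with a median GC of 69.2% against 58.3%. What part either has in the motif shares was not tested. A match describes the letters in the window and is no evidence of binding.

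The lowest members had different functions. PFDN4, a subunit of the prefoldin co-chaperone that hands actin and tubulin to the folding machinery, had 5129, 4869 and 4163 normalized counts in WT and 1623, 1452 and 1594 in Delta-TRRAP. DPM1, the catalytic subunit of dolichol-phosphate mannose synthase, had 7106, 6421 and 6189 in WT and 2731, 2554 and 2833 in Delta-TRRAP. The groups of both genes were far apart. The log2 fold changes were -1.60 ± 0.07 (SE) for PFDN4 and -1.28 ± 0.06 (SE) for DPM1.

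TPD52L2, a tumor protein D52 family member found on small transport vesicles, had 6633, 6669 and 6314 normalized counts in WT and 2691, 2737 and 2718 in Delta-TRRAP (log2 fold change -1.27 ± 0.05 (SE)). RGS19, which speeds GTP hydrolysis by Gi-type G proteins, had 380, 419.2 and 363.2 in WT and 171.6, 162.8 and 190.4 in Delta-TRRAP (-1.15 ± 0.09 (SE)). The groups of both genes were wide apart, and those of TPD52L2 varied by 0.863% (CV) within Delta-TRRAP. CSE1L, the export receptor that returns importin alpha to the cytoplasm, had 27840, 25320 and 25370 in WT and 12330, 13270 and 12410 in Delta-TRRAP (-1.05 ± 0.06 (SE)). TAF4, a core TFIID subunit, had 668.7, 699.3 and 751.9 in WT and 355, 373.4 and 298.3 in Delta-TRRAP (-1.04 ± 0.08 (SE)). CSE1L was also the most abundant member per length, at 6889 normalized counts per kb of exon in WT and 3334 in Delta-TRRAP, ahead of PRELID3B (2852 and 1472) and PFDN4 (2708 and 892.8). The bHLH factor TCFL5, with a log2 fold change of -1.01, lay just inside the 2-fold limit, and the uridine kinase-like gene UCKL1, at -0.997, just outside it.

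**Figure D4:**
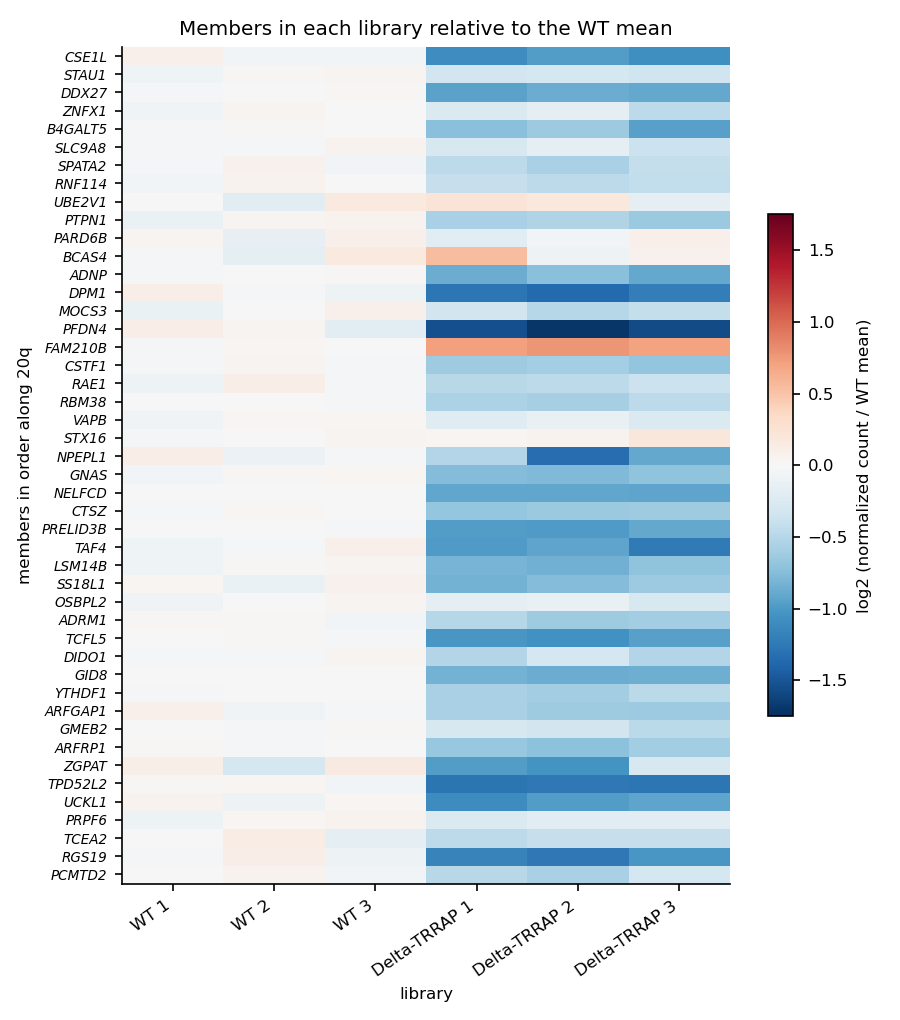
Heat map of the log2 ratio of each member's normalized count to its WT mean (color) in each of the 6 libraries (horizontal axis), with members in order along 20q (vertical axis). The Delta-TRRAP columns are blue in most rows, with depths that change from row to row and repeat across the 3 replicates, and FAM210B is red in all 3.

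FAM210B was the 1 member that stood higher in Delta-TRRAP without overlap. FAM210B, a mitochondrial inner membrane protein tied to heme synthesis in maturing red cells, had 6241, 6496 and 6368 normalized counts in WT and 10500, 10880 and 10400 in Delta-TRRAP. All 3 Delta-TRRAP libraries were well above all 3 WT libraries, and the log2 fold change was 0.73 ± 0.05 (SE), or 166.3% of WT. This ran against the erythroid marker sum, which was lower in Delta-TRRAP. The nearest members on either side, PFDN4 and the cleavage stimulation factor subunit CSTF1, stood at -1.60 and -0.64.

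Beside FAM210B, 3 members lay above 0, with groups that overlapped and edgeR adjusted p above 0.01. STX16, a SNARE of the trans-Golgi network, had 1840, 1874 and 1944 normalized counts in WT and 1924, 1962 and 2158 in Delta-TRRAP (log2 fold change 0.09 ± 0.06 (SE)). UBE2V1, the inactive partner of the UBE2N ubiquitin-conjugating enzyme, had 114.5, 98.8 and 128.2 in WT and 133.4, 129.7 and 101.5 in Delta-TRRAP (0.10 ± 0.14 (SE)). BCAS4 had 33.4, 30.7 and 38.7 in WT and 50.01, 32.2 and 36.0 in Delta-TRRAP (0.20 ± 0.22 (SE)). BCAS4 rested on few counts. Leaving out single libraries moved BCAS4 between -0.01 and 0.34 and UBE2V1 from just below 0 to 0.21, so that neither has a settled sign, while STX16 stayed between 0.04 and 0.12. Other scalings and filters moved STX16 further, to 0.23 with total counts, 0.20 with upper quartile scaling and 0.17 with a filter at 50 normalized counts, and it passed the adjusted p under both scalings.

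PARD6B and OSBPL2 were the next highest. PARD6B, an adaptor of the cell polarity complex with atypical protein kinase C, had 512.7, 451.8 and 526 normalized counts in WT and 437.4, 481.6 and 526.8 in Delta-TRRAP. These ranges overlapped almost wholly (log2 fold change -0.04 ± 0.08 (SE)), and the value was 0.09 when libraries were scaled by their total counts alone. OSBPL2, a lipid transfer protein of the oxysterol-binding family, had 1708, 1799 and 1843 in WT and 1586, 1625 and 1463 in Delta-TRRAP, lower without overlap (-0.19 ± 0.06 (SE)). That value was -0.06 with total-count scaling, -0.09 with upper quartile scaling and -0.12 with a filter at 50 normalized counts, none of them past the adjusted p. The ER contact-site protein VAPB (-0.20) and the spliceosome factor PRPF6 (-0.21) also lay well above the median of the members, at 87.2% and 86.7% of WT.

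The counting bears on some of these values. Reads that fell on more than 1 gene of the same strand were not counted, and 8 members share exon bases with another annotated gene on their strand. The shared part was 43.2% of exon bases in UBE2V1, 28.5% in STX16, 22.6% in NPEPL1 and 45.4% in ZGPAT, all with read-through or overlapping genes, and at most 9.65% in TPD52L2, PCMTD2, UCKL1 and TAF4. Levels of the first 4 can therefore be understated. The read-through gene STX16-NPEPL1 had 4 to 11 counts per library, and those overlapping UBE2V1 and ZGPAT had 0. Of the members above 0, UBE2V1 and STX16 are among the overlapped genes, and FAM210B and BCAS4 share no exon base with another gene of their strand.

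ZGPAT, a zinc finger repressor, and NPEPL1, an aminopeptidase-like protein, had low counts and wide errors. ZGPAT had 49.7, 37.4 and 51.9 normalized counts in WT and 23.5, 22.4 and 38.1 in Delta-TRRAP, with Delta-TRRAP 3 reaching into the WT range (log2 fold change -0.73 ± 0.23 (SE)). NPEPL1, the lowest member per length at 2.63 normalized counts per kb in WT, had 21.3, 18.2 and 19.3 in WT and 13.7, 7.8 and 10.6 in Delta-TRRAP (-0.87 ± 0.30 (SE)). At these depths neither value can be placed above or below the median of the members.

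Sorted by function, all 6 groups of members had a median below 0, which follows from how the members were chosen and says nothing about the functions. The 10 genes of RNA processing, RNA binding and nuclear export had a median of -0.54. All lay between -1.05 (CSE1L, which exports a protein rather than RNA) and -0.21 (PRPF6). They include the ribosome biogenesis helicase DDX27 (-0.90), the m6A reader YTHDF1 (-0.55), the erythroid splicing regulator RBM38 (-0.53), the mRNA export factor RAE1 (-0.44), the double-stranded RNA binder STAU1 (-0.33) and the RNA helicase ZNFX1 (-0.28). LSM14B, of the family of RNA granule proteins, was at -0.78.

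The 9 genes of transcription and chromatin had a median of -0.74, with NELFCD, a subunit of the pausing factor NELF, at -0.91, the chromatin protein ADNP at -0.83 and the BAF subunit SS18L1 at -0.74. NELFCD was the most tightly measured member, at 4183, 4206 and 4178 normalized counts in WT and 2226, 2234 and 2212 in Delta-TRRAP. DIDO1, TCEA2, a TFIIS elongation factor, and GMEB2 were milder, at -0.44, -0.42 and -0.36.

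The 9 genes of glycosylation, Golgi and membrane traffic had a median of -0.61. B4GALT5, which makes lactosylceramide, was at -0.77, the ARF GTPase activator ARFGAP1 at -0.61 and the Golgi sodium-proton exchanger SLC9A8 at -0.26. The 6 genes of ubiquitin, proteasome and folding had a median of -0.53, including the proteasomal ubiquitin receptor ADRM1 (-0.57), the CYLD adaptor SPATA2 (-0.48) and the ubiquitin ligase RNF114 (-0.43). Both groups had wide ranges, from -1.28 to 0.09 and from -1.60 to 0.10.

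In signaling, the G protein alpha subunit GNAS was at -0.75 and the tyrosine phosphatase PTPN1 at -0.58, and the 4 genes of the group had a median of -0.67. GNAS, which is a compound imprinted locus counted here as 1 gene, had 15770, 16560 and 16650 normalized counts in WT and 9607, 9525 and 10050 in Delta-TRRAP. The 8 genes of metabolism, mitochondria, lysosome and other roles had a median of -0.55 and the largest SD (0.61) of the 6 groups, from UCKL1 to FAM210B. PRELID3B, a lipid carrier of the mitochondrial intermembrane space, was at -0.95, the lysosomal protease CTSZ at -0.65 and PCMTD2 at -0.45.

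Members that start head to head allow a comparison over short distances. In 3 pairs of members the annotated starts lie within 1000 bases on opposite strands, and reads were counted by strand. DPM1 and MOCS3, whose outermost starts are 322 bases apart, differed the most. MOCS3, which activates sulfur carriers for molybdenum cofactor and tRNA thiolation, had 549.2, 599.5 and 634.9 normalized counts in WT and 477.6, 422.1 and 445.3 in Delta-TRRAP. Its log2 fold change was -0.41 ± 0.08 (SE) against -1.28 ± 0.06 (SE) for DPM1, a difference of -0.87. The ratio of DPM1 to MOCS3 counts, on the log2 scale, was 3.69, 3.42 and 3.28 in WT and 2.51, 2.60 and 2.67 in Delta-TRRAP, without overlap.

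DIDO1, a chromatin-binding PHD finger protein, and GID8, a core subunit of the CTLH ubiquitin ligase, start 195 bases apart. DIDO1 had 3510, 3498 and 3711 normalized counts in WT and 2507, 2900 and 2503 in Delta-TRRAP (log2 fold change -0.44 ± 0.06 (SE)). GID8 had 3486, 3538 and 3507 in WT and 1970, 1920 and 1948 in Delta-TRRAP (-0.85 ± 0.05 (SE)). The WT counts of both genes were nearly equal, and in Delta-TRRAP GID8 was the lower of the 2 in every library, with a difference in log2 fold change of 0.41. ARFRP1, an ARF-like GTPase of the trans-Golgi, had 1077, 1047 and 1066 in WT and 673.7, 644.4 and 700.2 in Delta-TRRAP. It was at -0.66 ± 0.06 (SE), beside ZGPAT at -0.73, and this pair differed by less than the error of ZGPAT.

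**Figure D5:**
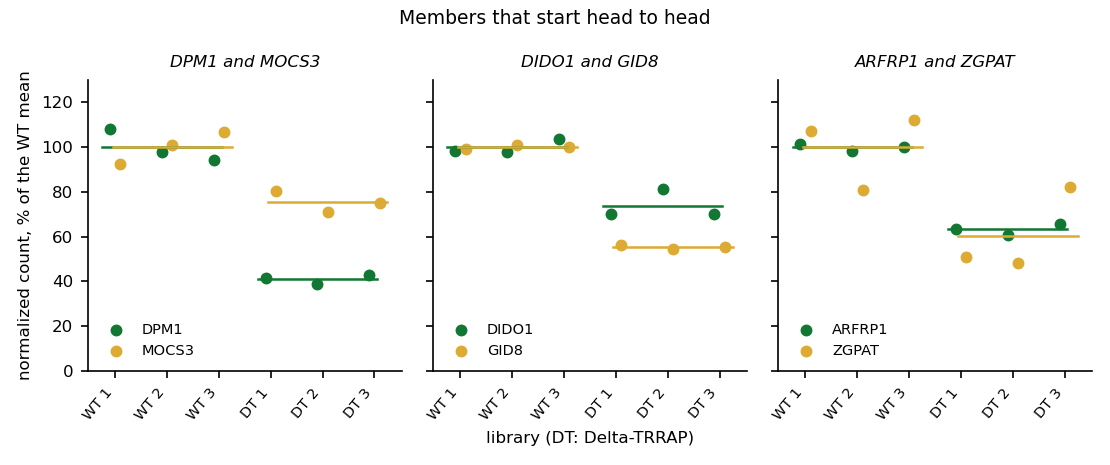
Normalized counts as a percentage of each gene's WT mean (vertical axis, from 0) in each library (horizontal axis) for the 3 pairs of members that start head to head, with points for libraries and lines for group means. DPM1 and MOCS3 separate in Delta-TRRAP, DIDO1 and GID8 separate less, with GID8 the lower, and ARFRP1 and ZGPAT do not separate.

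Partners outside the member list showed both patterns. CSTF1 and the mitotic kinase AURKA, with starts 34 bases apart, were at -0.64 and -0.54, and SS18L1 and the proteasome subunit PSMA7 at -0.74 and -0.95. ZNFX1 and the noncoding snoRNA host ZFAS1, 248 bases apart, were at -0.28 and -1.196, and ADNP and ADNP-AS1 at -0.83 and 0.81, the latter with a mean of only 28.5 normalized counts. TCEA2 and the endothelial factor SOX18 were at -0.42 and -2.08, the latter with a mean of 58.9. TPD52L2 and the noncoding AL118506.1 were at -1.27 and -0.17, and GMEB2 and the noncoding MHENCR at -0.36 and 0.15. TAF4 and AL137077.2 were at -1.04 and 0.14, and SNORD12C, beside ZNFX1, was at -1.43. The means of AL137077.2 and SNORD12C were only 18.7 and 5.69.

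Genes between the outermost members that are not members ranged more widely than the members, with an SD of 0.80. The highest were TUBB1, the beta-tubulin of platelets, RIPOR3 and CABLES2. TUBB1 had 265.5, 284.9 and 276.7 normalized counts in WT and 1473, 1454 and 1277 in Delta-TRRAP (log2 fold change 2.35 ± 0.07 (SE)), and RIPOR3 and CABLES2 were at 0.87 and 0.49. The lowest were STMN3, a microtubule-destabilizing stathmin, the organic anion transporter SLCO4A1 and SLC2A4RG, a zinc finger regulator of the GLUT4 gene. STMN3 had 1918, 1739 and 1689 in WT and 420.7, 409.4 and 412.5 in Delta-TRRAP (-2.11 ± 0.06 (SE)), and SLC2A4RG was at -1.79. SLCO4A1 lay between them, with 696.1, 674.4 and 657.3 in WT and 172.6, 183.3 and 149.1 in Delta-TRRAP. Of these 38 genes, 32 lay below 0.

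Proteins that work with the members are encoded elsewhere in the genome and were not chosen by the rule. Of 55 complex partners on other chromosomes, 54 were tested, and 24 (44.4%) fell and 10 (18.5%) rose at an edgeR adjusted p of 0.01 or less, while 20 did not pass. Over all genes tested 27.6% fell and 30.7% rose. The partners had a median log2 fold change of -0.12. Most of them averaged over 1000 normalized counts. The 6803 genes across the genome at 1000 or more had a median of -0.14, with 63.4% below 0. The shares that fell and rose were not counted at that level. The split of falls and rises depends on the scaling, with 14 falling and 16 rising when libraries were scaled by their total counts alone.

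Prefoldin shows the mixture. PFDN2 had 2832, 2909 and 2538 normalized counts in WT and 1548, 1457 and 1695 in Delta-TRRAP, and fell by 0.82 ± 0.07 (SE) on the log2 scale (edgeR, Benjamini-Hochberg adjusted p = 3e-08), the lowest of all partners. PFDN1 had 2541, 2723 and 2461 in WT and 3466, 3443 and 3440 in Delta-TRRAP, a rise of 0.42 ± 0.05 (SE) (edgeR adjusted p = 3.18e-06). PFDN5, PFDN6 and VBP1 fell, with log2 fold changes of -0.53, -0.32 and -0.26. Both partners of the ribosome assembly helicase DDX27 among the lowest, BOP1 and WDR12, fell by 0.76 ± 0.06 (SE) and 0.68 ± 0.05 (SE) (edgeR adjusted p = 1.02e-08 and 8.15e-09).

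The highest partners, after CYLD, were WDR26 and PFDN1. CYLD, the deubiquitinase that SPATA2 recruits, had 723.5, 733.8 and 739.7 normalized counts in WT and 1067, 1150 and 1057 in Delta-TRRAP, and rose by 0.58 ± 0.06 (SE) (edgeR adjusted p = 3.5e-07). WDR26, a CTLH subunit that works with GID8, rose by 0.51 ± 0.05 (SE) (edgeR adjusted p = 3.32e-07). In TFIID, TAF5 fell (-0.30), TAF7, TAF12 and TBP rose (0.32, 0.35 and 0.21), and 7 further tested subunits did not pass. NELFA and NELFB fell (-0.50 and -0.55), and NELFE rose (0.20), beside NELFCD at -0.91.

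Paralogues of the members, also on other chromosomes, were counted in the same way. Of 35 listed, 33 were tested, 16 (48.5%) fell and 5 (15.2%) rose, with a median of -0.25, and 12 did not pass. The shares over all genes tested were 27.6% and 30.7%, and total-count and upper quartile scaling gave 10 and 8 that rose. Shares at a matched level were not counted, and many of the paralogues lie on chromosome 18, as given below. With a 2-fold change added, 3 fell and 4 rose, beside 6.08% and 16.5% of all genes. RGS20, related to RGS19, had 160.1, 127.6 and 114 normalized counts in WT and 30.4, 32.2 and 32.8 in Delta-TRRAP, and fell by 2.07 ± 0.17 (SE) (edgeR adjusted p = 4.49e-08). PARD6A and PARD6G fell by 1.76 ± 0.28 (SE) and 1.08 ± 0.14 (SE) (edgeR adjusted p = 5.53e-05 and 6.54e-06), whereas PARD6B on 20q had overlapping groups. All 3 cell polarity paralogues are expressed at low to moderate counts here, and PARD6A had 7.4 to 21.5 normalized counts in Delta-TRRAP.

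The 3 paralogues that rose furthest were GNAL, B4GALT6 and OSBPL1A. All 3 lie on chromosome 18, which also holds paralogues that fell, namely PARD6G, VAPA, TAF4B, ADNP2, FAM210A, PTPN2 and RNF138. SS18, PRELID3A and RNF125, on the same chromosome, did not pass. Fold changes along chromosome 18 were not examined, and a link between these paralogues and their members was not tested. GNAL, the olfactory relative of GNAS, had 0, 1.92 and 0 normalized counts in WT and 44.1, 39.0 and 55.0 in Delta-TRRAP (edgeR adjusted p = 6.97e-08), that is 2 counts against 137, a ratio of 69.0 (95% exact interval 18.7 to 575, counting error only). B4GALT6, the relative of B4GALT5 that also makes lactosylceramide, had 22.3, 21.1 and 13.2 in WT and 177.5, 157.9 and 166.1 in Delta-TRRAP, a rise of 3.14 ± 0.17 (SE) (edgeR adjusted p = 4.04e-10). OSBPL1A, with 2.03, 4.80 and 1.02 in WT and 9.81, 9.75 and 10.6 in Delta-TRRAP, rose by 1.87 ± 0.50 (SE) (edgeR adjusted p = 0.0037), a call that was lost under DESeq2 and on leaving out each of WT 1, WT 3 and Delta-TRRAP 1. Placed beside their members, B4GALT6 and B4GALT5 moved in opposite directions, as did GNAL and GNAS.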

How the data were processed

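RNA-seq counts were used for 6 K562 libraries, 3 per group, grouped by the genotype and replicate number in the labels. The deposited counts are whole reads per gene: the authors aligned reads to hg38 with STAR, kept uniquely mapped reads, and counted them with HTSeq (2.0.2) on GENCODE release 32, reverse strand, in union mode, which drops reads over more than 1 gene. Tables of the series that repeat the counts, with 3 columns of samples not analysed here, and the authors' own comparison, with fold changes and p-values, were not used.

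Counts were fitted with edgeR (4.0.16, R 4.3.3), quasi-likelihood test, TMM scaling, on all genes averaging 5 or more normalized counts, with Benjamini-Hochberg adjustment over all 19114. A normalized count is a count divided by the library's TMM-scaled size relative to the mean of all 6. Calls took an adjusted p of 0.01 or less, with a fold change of at least 2 where stated. The fit was tested on simulated data. Alternatives were DESeq2 (1.42.0), limma-voom (3.58.1), other scalings, filters and fold limits, a replicate block and leaving out each library. Depth was 35076835 to 42616061 counts per library. Replicates of a group differed by more than sampling noise.

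Members, gene lists and tests were chosen with earlier results of these data known. Named with all values were the 6 lowest and 6 highest members, members with overlapping groups and head-to-head pairs. Also named were the 3 highest and 3 lowest other genes of the span with a mean of at least 100, and the 3 highest and 3 lowest partners and paralogues past the adjusted p. Other members are named by role, and other complex subunits and GNAS, NELFCD and head-to-head partners were chosen after their values were seen. Coordinates, lengths and exon overlaps are from GENCODE release 44, matched by gene identifier for 19041 of the genes tested, so overlaps may differ from the release used for counting.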

Additional observations from a re-analysis of the deposited data

How the results depend on the processing

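The median log2 fold change of the members, -0.60, was -0.46 with scaling by total counts, -0.49 with upper quartile scaling and -0.51 with a filter of a mean of at least 50, which left 43 members. Total-count and upper quartile scaling moved the median of all genes from 0.03 to 0.17 and 0.13. Relative to that median the members stood at -0.63 in both, and at -0.63 in the fit as reported. The filter moved this difference, to -0.52 at a mean of at least 50 and to -0.73 with all genes that had a count. Members lower by 2-fold were 7 in the fit as reported and 4 under each of these 3 alternatives, and 21 with a fold limit of 1.5, which also gave 6750 genes in all and 2562 lower. The filter at 50 gave 1964 genes, 673 lower and 1291 higher, against 4322, 1162 and 3160, with fewer genes tested. The share of calls that were higher was 73.1%, and 65.7% with that filter. Total-count scaling gave 14 partners lower, 16 higher and 10 paralogues higher, and upper quartile scaling gave 8 paralogues higher. Against all tested 20p genes the difference in medians was -0.64, and -0.60 as reported. Leaving out 1 library moved the members' median between -0.62 and -0.59 and the count lower by 2-fold between 7 and 8. The SD between members stayed between 0.42 and 0.45 in every alternative. No value changed sign past a threshold. PARD6B lay above 0 with total-count and upper quartile scaling, with the filter at 50 and without Delta-TRRAP 1.

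Same-numbered libraries did not deviate together (correlations -0.04 to -0.01), so the numbers do not pair them. With a replicate block the members' median was -0.59, 38 were lower at the adjusted p and 4184 genes were called in all, and no count moved by over 1.5 times.

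With 3 replicates of 1 clone per line, errors cover these clones only. NPEPL1, ZGPAT and BCAS4 are limited by depth, at means under 100 normalized counts.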
